A study of Mus musculus with 56 samples.

Results

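Large intestinal (LI) contents of wild-type mice fed a Western diet (WT-WD) were compared with LI contents of wild-type mice fed a normal diet (WT-ND). The libraries were chosen by their labels alone: 6 WT-WD LI and 6 WT-ND LI libraries, together 12 of the 56 libraries of the series. All 12 mice were male C57BL/6J animals without a targeted allele, were 10 weeks old when feeding with WD or ND began, and were fed for 12 weeks. Before that, both groups had received the same chow and then ND, and the diets were allocated by stratified randomisation. Contents came from a 4 cm stretch of gut starting midway between cecum and anus, and the mice were housed singly. The other 44 libraries were small intestinal (SI) contents of wild-type mice and both sites of melanocortin 4 receptor knockout (MC4R KO) mice.

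The assay amplifies a stretch of the bacterial 16S rRNA gene from DNA and counts each distinct sequence, called an amplicon sequence variant (ASV). In the large intestine, anaerobic bacteria ferment the fibre and host mucus that escape digestion, mainly to short-chain fatty acids. Firmicutes and Bacteroidetes are the main phyla there, with Actinobacteria such as *Bifidobacterium*, which ferments sugars and oligosaccharides, and Verrucomicrobia such as *Akkermansia*, which feeds on the mucin of the mucus layer. The diet sets which of these substrates reach the large bowel. Every value below is a share of the counts of its library, so a higher share of 1 taxon lowers the others, and more cells of a taxon, fewer cells of all others or more 16S gene copies per cell cannot be told apart.

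The total was 28752 to 34174 counts (median 32464.5) in WT-WD LI and 27237 to 31702 (median 30336.5) in WT-ND LI, within the range of 22550 to 35236 over all 56 libraries. Of 938 ASVs, 468 had counts in the 12 libraries, and these fell into 47 genera, 30 families and 8 phyla. At each rank these numbers include groups without a name, such as the ASVs without a phylum. At the shallowest library, a share of 1% had a 95% Wilson interval of 0.887% to 1.12%, and a share of 0.02% one of 0.00784% to 0.0430%. A count of 0 in 1 library allowed a share of up to 0.00878% to 0.0110% (3 counts). Intervals and limits cover counting error only, since amplicon reads are not independent molecules. Chloroplast, mitochondrial and Desulfovibrionaceae sequences had no counts in the 12 libraries.

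The communities of the diet groups differed. WT-WD LI held less Actinobacteria and more Verrucomicrobia than WT-ND LI, 8 of 37 genera (21.6%) had an unadjusted p under 0.05, and 1 of them (2.70%), an unnamed genus of [Mogibacteriaceae], passed the adjusted test. Taxa were tested with edgeR's quasi-likelihood test, in which the log2 fold change is WT-WD over WT-ND and a taxon passed with an adjusted p under 0.05. Square brackets mark names that Greengenes proposes. *Allobaculum* had the highest mean share of all genera on both diets, with a mean of 23.7 ± 7.26% in WT-WD LI and 37.8 ± 10.3% in WT-ND LI (SD, n = 6 each). The 10 genera with the highest mean shares held 70.5% to 78.5% of the counts in WT-WD LI and 83.1% to 90.4% in WT-ND LI.

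**Figure D1:**
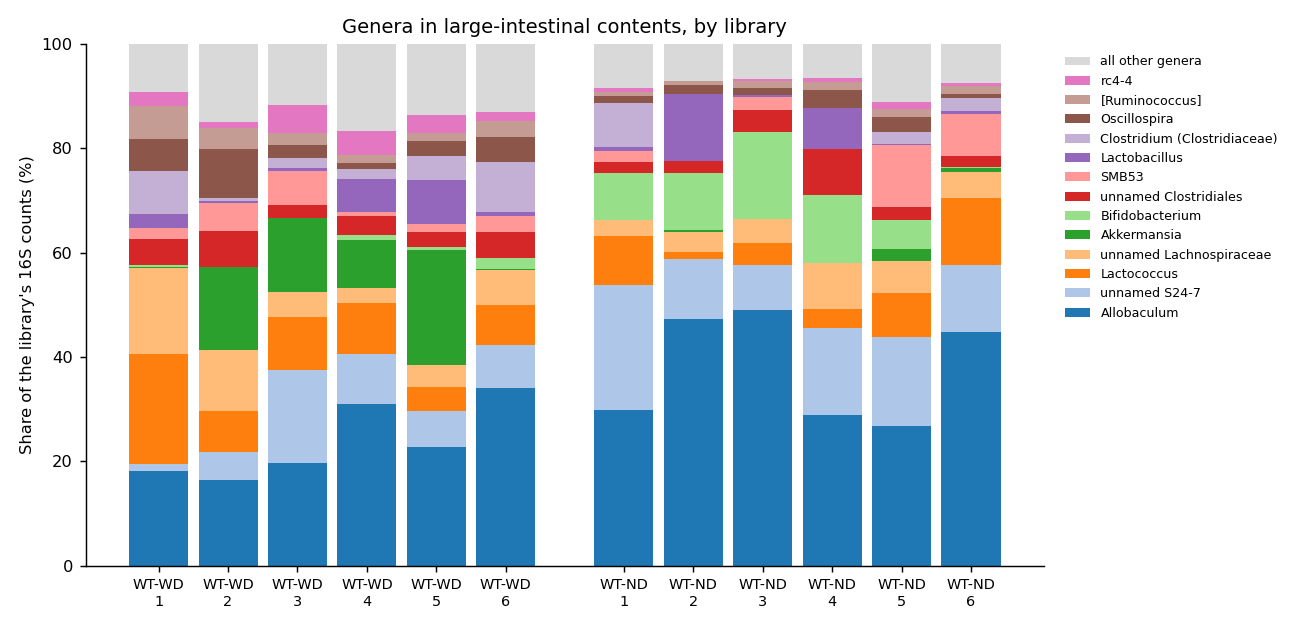
Stacked bars give the share (%) of each library's counts held by 13 genera and by all other genera, for the 6 WT-WD and the 6 WT-ND LI libraries. *Akkermansia* forms a wide band in WT-WD 2, 3, 4 and 5 (9.21% to 22.1%), *Bifidobacterium* in all WT-ND libraries but WT-ND 6, and *Allobaculum* is the lowest band.

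Diet accounted for 26.8% of the variance of Bray–Curtis distances between ASV shares (exact permutational analysis of variance over all 924 divisions of the 12 libraries, p = 0.00216, the smallest value these divisions can give). It accounted for 14.4% of the variance of Jaccard distances, which use only presence (exact p = 0.00216, n = 6 each). Any division of the libraries takes up some of the variance, and that part was not subtracted from these shares. Jaccard distances averaged 0.649 within WT-WD and 0.668 within WT-ND, against 0.696 between the diets. Bray–Curtis distances averaged 0.485 within WT-WD and 0.410 within WT-ND, against 0.538 between the diets. Of the 12 libraries, 10 had their nearest neighbour on the same diet and 11 were closer on average to their own group. The exception was WT-WD 6, which lay on average 0.479 from the other WT-WD libraries and 0.427 from WT-ND libraries. WT-WD 6 and WT-ND 1 were each other's nearest library, at a distance of 0.342.

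**Figure D2:**
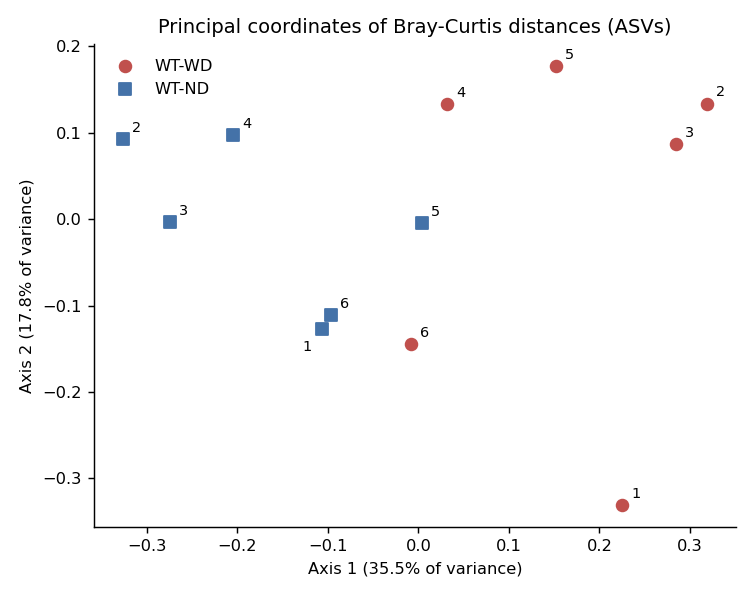
Principal coordinates of the Bray–Curtis distances between the 12 libraries, with axis 1 holding 35.5% and axis 2 holding 17.8% of the variance; numbers are the replicates. All WT-WD libraries but WT-WD 6 lie to the right of every WT-ND library, WT-WD 6 lies near WT-ND 1 and 6, and WT-WD 1 lies apart at the foot of axis 2.

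At the level of genera, *Allobaculum* made up 17.8% of the mean distance between WT-WD and WT-ND libraries, *Akkermansia* 11.6%, *Bifidobacterium* 10.0%, unnamed S24-7 9.45% and *Lactococcus* 6.47%. These 5 genera together made up 55.3% of it. These parts were not set against distances within a diet, so abundant or variable genera can rank high without a diet difference. *Lactococcus*, for example, had an adjusted p of 0.491 in the edgeR test.

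ASV richness after equal draws was 131 ± 26.5 in WT-WD LI and 130 ± 13.5 in WT-ND LI (exact rank-sum p = 0.732, adjusted over 3 indices p = 0.732). The Shannon index, in bits, was 4.79 ± 0.489 in WT-WD LI and 4.10 ± 0.569 in WT-ND LI (exact p = 0.0931, adjusted p = 0.140). Pielou's evenness, which is near 1 when all ASVs have similar shares, was 0.682 ± 0.0500 in WT-WD LI and 0.583 ± 0.0755 in WT-ND LI (exact p = 0.0411, adjusted p = 0.123). None of the indices passed after adjustment on ASVs. On genera, the Shannon index and evenness passed: the Shannon index was 3.57 ± 0.102 in WT-WD LI and 3.00 ± 0.355 in WT-ND LI, and evenness was 0.719 ± 0.0290 in WT-WD LI and 0.611 ± 0.0628 in WT-ND LI (exact p = 0.00433, adjusted p = 0.00649 for each). Counts were thus spread more evenly over genera in WT-WD LI than in WT-ND LI, with a number of genera that averaged 31.5 ± 3.20 in WT-WD LI and 30.2 ± 3.77 in WT-ND LI.

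Of 6 phyla tested, 2 passed (33.3%), Actinobacteria and Verrucomicrobia. Firmicutes, the phylum with the highest share, held 60.1% to 96.9% (median 73.1%) in WT-WD LI and 63.7% to 83.1% (median 71.8%) in WT-ND LI (log2 fold change 0.091, SE 0.11, adjusted p = 0.423). Bacteroidetes held 2.12% to 25.4% (median 9.80%) in WT-WD LI and 8.85% to 25.03% (median 15.9%) in WT-ND LI (log2 fold change -0.54, SE 0.54, adjusted p = 0.411). Both phyla overlapped widely between the diets. The log2 ratio of Firmicutes to Bacteroidetes averaged 3.10 ± 1.37 in WT-WD LI and 2.23 ± 0.60 in WT-ND LI, a difference of 0.87 (exact permutation p = 0.177, n = 6 each). Without WT-WD 3, whose ratio of 2.37 was the lowest of the WT-WD libraries, the difference was 1.25 (exact p = 0.00866). The other 11 removals of 1 library did not pass (exact permutation p up to 0.361). WT-WD 1 had the highest ratio of the 12 libraries, 45.8, and without it the difference was 0.39, the lowest of the 12 removals.

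Actinobacteria fell in WT-WD LI. The phylum held 0.289%, 0.793% and 4.42% (lowest, median and highest) in WT-WD LI and 2.35%, 12.7% and 19.4% in WT-ND LI. All WT-WD libraries but WT-WD 4 lay below every WT-ND library. On the log2 scale the difference was -2.95 ± 1.02 (SE), with an adjusted p = 0.0322 (exact rank-sum p = 0.00433). Without WT-WD 4 the WT-WD mean was 0.903 ± 0.821%, against 1.49 ± 1.61% with it. The call was lost when any one of WT-WD 2, 3 or 5 or WT-ND 2, 3 or 4 was left out (adjusted p = 0.0509 to 0.102).

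*Bifidobacterium* held 1325 of the 2942 Actinobacteria counts of WT-WD LI and 16702 of the 20799 of WT-ND LI, and 98.3% of that genus was 1 ASV assigned to *B. pseudolongum*, a species common in the gut of rodents. The genus held 0%, 0.505% and 2.09% in WT-WD LI, with no counts in WT-WD 2 and 3. It held 0.2996%, 10.0% and 16.5% in WT-ND LI. The groups overlapped only through WT-ND 6, the lowest of its group by far, and without it the WT-ND mean was 11.05 ± 4.11%. The genus missed the adjusted threshold (log2 fold change -3.76, SE 1.52, adjusted p = 0.166; exact rank-sum p = 0.0260 unadjusted).

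An unnamed genus of Coriobacteriaceae, a family with several members that transform bile acids and plant polyphenols, had counts in 1 of 6 WT-WD libraries and in all 6 WT-ND libraries. The single WT-WD library, WT-WD 4, held 3.15%. The WT-ND libraries held 0.920% to 4.09% (median 1.54%). The fitted log2 fold change was -1.91 (SE 2.02, adjusted p = 0.551; exact rank-sum p = 0.0346 unadjusted), and without WT-WD 4 this genus and the whole family passed (family adjusted p = 0.00341, against 0.207 with all libraries). *Adlercreutzia*, a genus of the same family known to form equol from soy isoflavones, averaged 0.279 ± 0.0739% in WT-WD LI and 0.266 ± 0.198% in WT-ND LI (adjusted p = 0.977). Of the 3 genera of Bifidobacteria and Coriobacteria tested, 1 was fitted higher and 2 lower in WT-WD LI, and none passed, with a median log2 fold change of -1.91 against 1.11 over all 37 genera.

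Verrucomicrobia rose in WT-WD LI, and all of its counts were *Akkermansia*. The share was 0.127%, 11.7% and 22.1% (lowest, median and highest) in WT-WD LI and 0%, 0.156% and 2.27% in WT-ND LI. The WT-WD libraries were split into WT-WD 2, 3, 4 and 5, which held 9.21% to 22.1% and lay above every WT-ND library, and WT-WD 1 and 6, with 0.264% and 0.127%, which lay within the WT-ND range. The WT-ND mean was 0.543 ± 0.883% with all libraries and 0.198 ± 0.290% without WT-ND 5, its highest. The phylum's log2 fold change, 4.25 ± 1.56 (SE), had an adjusted p of 0.0322, and the same counts tested among genera had an adjusted p of 0.166. The exact rank-sum p was 0.0649. The call was lost with trimmed-mean (TMM) scaling factors, a 0.1% filter, adjusted rank-sum tests and all 4 LI groups in 1 fit (adjusted p = 0.0674 to 0.195), and with any one of WT-WD 2, 3, 4 or 5 or WT-ND 2, 3, 4 or 6 left out (0.0551 to 0.102).

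Both *Akkermansia* ASVs were assigned to *A. muciniphila*, and the first made up 85.4% of the genus. The second had counts in WT-WD 2, 3, 4 and 5, the same libraries that were high for the first, at 0.603% to 4.77%, and in WT-ND 5 at 0.338%. *Mucispirillum*, the other genus known to live in the mucus layer of rodents, had counts in 2 of 6 WT-WD and 3 of 6 WT-ND libraries. WT-WD 2 alone held 4.30%, and without it the WT-WD mean was 0.0130 ± 0.0290%, against 0.113 ± 0.206% in WT-ND LI (log2 fold change with all libraries 2.69, SE 2.43, adjusted p = 0.491). Neither of these mucus-layer genera passed in the genus test.

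**Figure D3:**
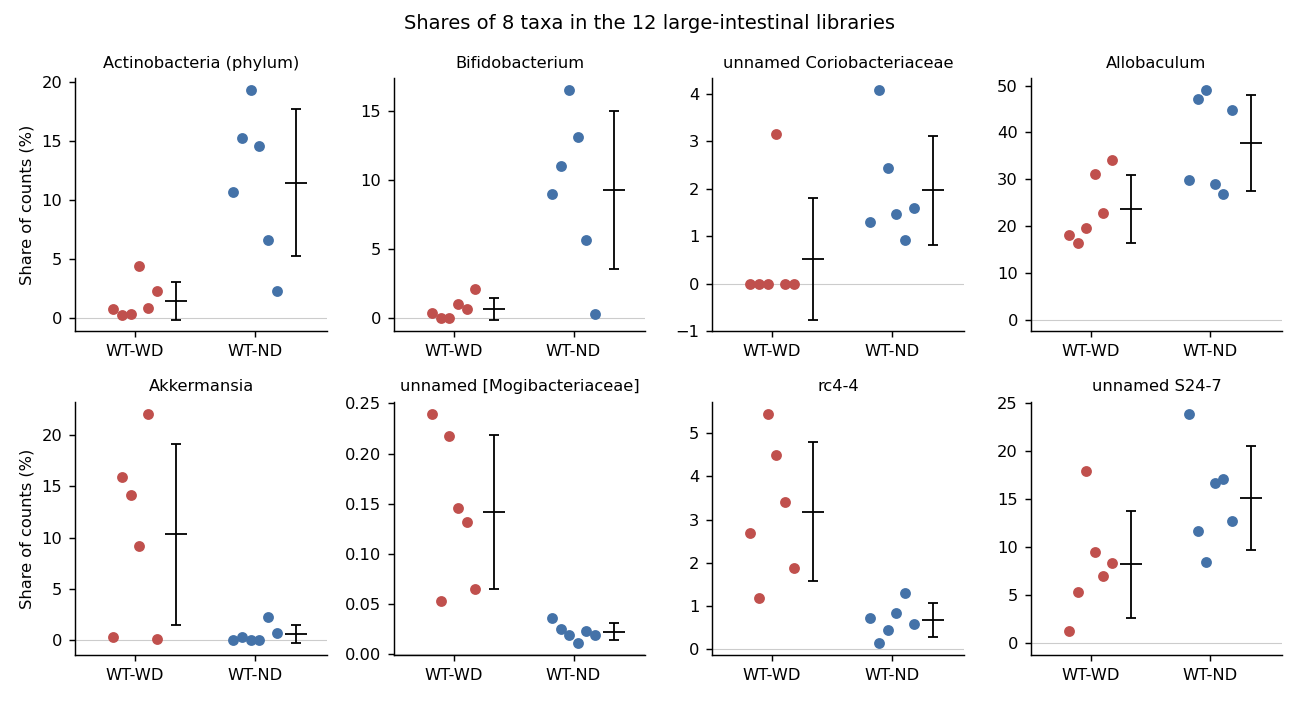
Each point is the share (%) of 1 of the 12 LI libraries, WT-WD left and WT-ND right, with the mean and SD of 6 libraries as a bar beside the points; axes are linear and differ between panels. Unnamed [Mogibacteriaceae] is the panel in which no WT-WD point lies within the WT-ND range, and *Akkermansia* is split among WT-WD libraries.

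*Allobaculum*, a fermenter of sugars in the Erysipelotrichaceae, held 16.4%, 21.2% and 34.1% (lowest, median and highest) in WT-WD LI and 26.8%, 37.4% and 49.1% in WT-ND LI. Of the WT-WD libraries, 4 lay below every WT-ND library, while WT-WD 4 and 6 did not. The log2 fold change of -0.67 (SE 0.24) did not pass (adjusted p = 0.166). A single ASV made up 99.7% of the genus. The authors caution that 16S sequences alone may not tell *Allobaculum* from the closely related *Faecalibaculum*. Of 4 Erysipelotrichaceae genera tested, 2 were fitted higher and 2 lower, with a median log2 fold change of 0.35 against 1.11 over all genera. The family total was 25.2 ± 8.04% in WT-WD LI and 38.5 ± 10.3% in WT-ND LI (adjusted p = 0.136). A second genus of the family, filed under the name *Clostridium*, had counts in 4 of 6 WT-WD and all 6 WT-ND libraries. Its 4 WT-WD libraries with counts held 1.65% to 2.42% and lay above every WT-ND library (0.278% to 1.36%), while WT-WD 2 and 3 had none. Over all 6 libraries of each diet this genus did not pass (log2 fold change 1.21, SE 1.38, adjusted p = 0.568).

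Among the less abundant Clostridiales, 2 families rose, the only 2 of 22 families to pass (9.09%). [Mogibacteriaceae], anaerobes of the gut, held 0.0528%, 0.139% and 0.240% in WT-WD LI and 0.0110%, 0.0216% and 0.0367% in WT-ND LI. Every WT-WD library lay above every WT-ND library. Of the 37 genera tested, 1 (2.70%) had all WT-WD libraries on the same side of every WT-ND library. The family's log2 fold change was 2.64 ± 0.63 (SE), with an adjusted p = 0.0275 (exact rank-sum p = 0.00216, the smallest possible). These shares rest on 17 to 78 counts per WT-WD library and 3 to 11 per WT-ND library.

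All of this family's counts belonged to an unnamed genus, the only genus of 37 to pass, at 2.64 ± 0.60 (log2, SE; adjusted p = 0.0293). At the genus rank it passed with DESeq2 but not with TMM factors, centred log ratios, no filter, adjusted rank-sum tests or 4 groups in 1 fit (adjusted p = 0.0801 to 0.233), nor (0.0524 to 0.0879) when any one of WT-WD 3 or 5 or WT-ND 1, 2, 3, 5 or 6 was left out. At the family rank it was lost with TMM factors, no filter and 4 groups in 1 fit (0.0636 to 0.274), and without WT-ND 3 or WT-ND 6 (0.0793 to 0.0834). Of its 9 ASVs, 3 had counts on both diets, 2 in WT-WD LI only and 4 in WT-ND LI only. The most abundant, 50.4% of the genus, had counts in 4 of 6 WT-WD libraries (up to 0.218%) and in no WT-ND library, at least 50.0-fold higher in WT-WD LI against the limit of 3 counts over the group, but its adjusted p was 0.118.

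Peptococcaceae, strict anaerobes, held 1.18%, 3.06% and 5.45% in WT-WD LI and 0.156%, 0.670% and 1.37% in WT-ND LI. All WT-WD libraries but WT-WD 2 lay above every WT-ND library. The log2 fold change of 2.19 ± 0.59 (SE) had an adjusted p = 0.0310 (exact rank-sum p = 0.00433). The call was lost with TMM factors, no filter, a 0.1% filter and 4 groups in 1 fit (adjusted p = 0.0583 to 0.274) and when any one of WT-WD 3 or 5 or WT-ND 1, 3, 4 or 6 was left out (0.0529 to 0.0970).

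Its main genus was rc4-4, a lineage named from environmental 16S sequences, and rc4-4 was a single ASV. It held 1.18%, 3.04% and 5.45% in WT-WD LI and 0.137%, 0.652% and 1.30% in WT-ND LI. Among genera it had an adjusted p of 0.0733 (log2 fold change 2.25, SE 0.64). Without WT-WD 2, its lowest WT-WD library, the adjusted p was 0.0480. In the other 11 of 12 removals of 1 library rc4-4 did not pass (adjusted p up to 0.202). The other genus of the family, unnamed, had a fitted change of the opposite sign: it had 14 counts in all of WT-WD LI, in 2 of 6 libraries, and 53 in WT-ND LI, in all 6 (log2 fold change -1.98, SE 1.29, adjusted p = 0.355). Together with *Dehalobacterium* and unnamed Christensenellaceae, 5 genera of these minor Clostridiales were tested. Of these, 4 were fitted higher and 1 lower in WT-WD LI, with a median log2 fold change of 1.37 against 1.11 over all genera.

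**Figure D4:**
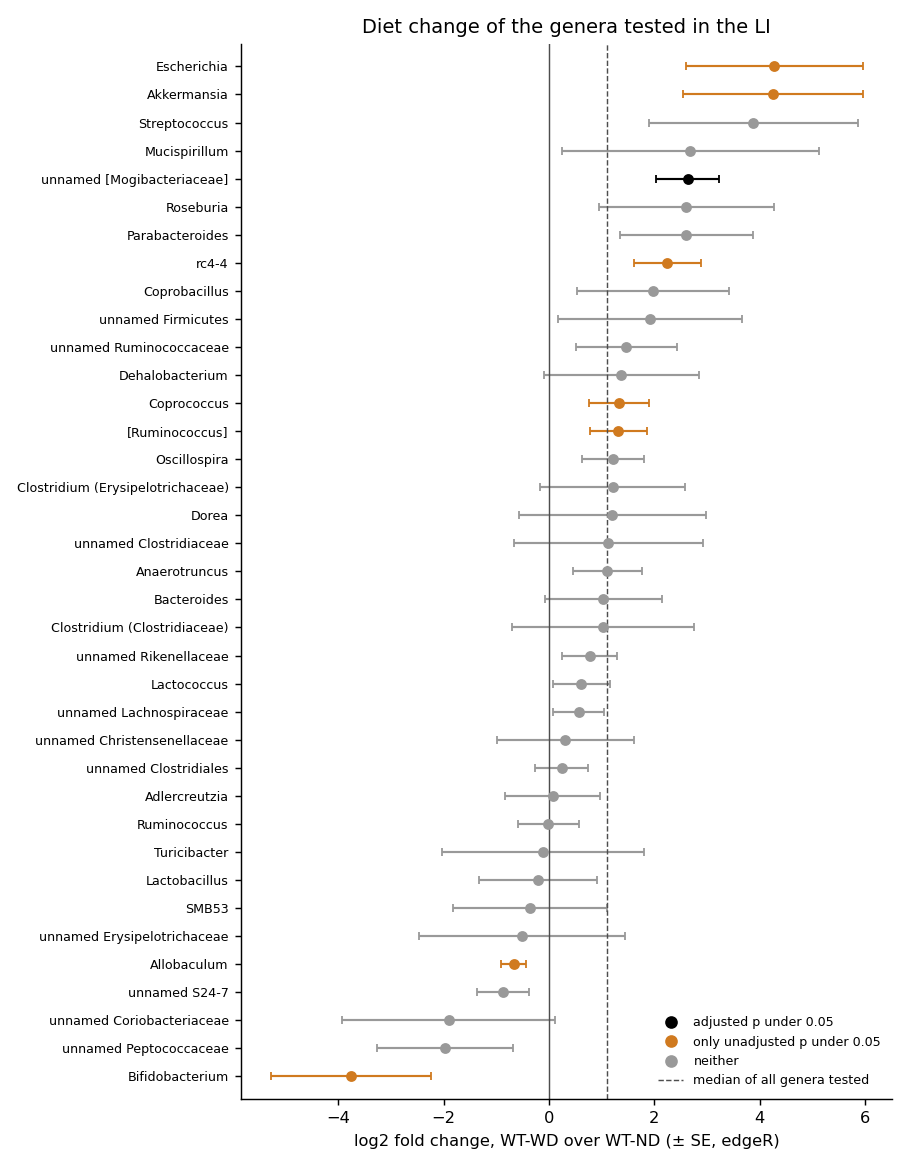
Log2 fold changes (WT-WD over WT-ND, edgeR) of the 37 genera tested, with their SE as bars and the median of all genera, 1.11, as a dashed line. Unnamed [Mogibacteriaceae] is the genus in black, past the adjusted threshold, and the 7 in orange had only an unadjusted p under 0.05.

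Of the 37 genera, 27 (73.0%) were fitted higher in WT-WD LI, and the median log2 fold change was 1.11. This balance depends on the scaling. With TMM factors 22 genera (59.5%) were fitted higher and the median was 0.47. With DESeq2's size factors it was again 22 genera, with a median of 0.48. The 8 genera with an unadjusted p under 0.05 were 6 higher and 2 lower in WT-WD LI. The higher ones were unnamed [Mogibacteriaceae], rc4-4, *Escherichia*, *Akkermansia*, [Ruminococcus] and *Coprococcus*, and the lower ones *Allobaculum* and *Bifidobacterium*. [Ruminococcus] and *Coprococcus* lay close to the median of all genera, with log2 fold changes of 1.31 and 1.33, and with TMM factors their values were 0.47 and 0.61.

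These 2 genera belong to the Lachnospiraceae, fibre fermenters of which several form butyrate. Scaled by library totals, all 5 Lachnospiraceae genera tested were fitted higher in WT-WD LI, beside 27 of all 37 genera (73.0%). None passed, and their median log2 fold change was 1.31 against 1.11 over all genera. With TMM factors, DESeq2 and centred log ratios, unnamed Lachnospiraceae was fitted lower. [Ruminococcus] held 1.49%, 2.57% and 6.42% (lowest, median and highest) in WT-WD LI and 0.701%, 1.46% and 1.65% in WT-ND LI. *Coprococcus* held 0.328%, 0.485% and 1.09% in WT-WD LI and 0.0766%, 0.234% and 0.510% in WT-ND LI. Both overlapped between the diets, by 2 WT-WD libraries for [Ruminococcus] and 4 for *Coprococcus*, and both had an adjusted p of 0.166. *Roseburia*, a butyrate former, had counts in all 6 WT-WD and in 2 of 6 WT-ND libraries, with 1.15% in WT-WD 2 and a mean of 0.158 ± 0.187% over the other WT-WD libraries, against 0.0525 ± 0.0824% in WT-ND LI (adjusted p = 0.355). All 608 *Roseburia* counts of WT-WD LI belonged to 1 ASV, ASV_102, which had no count in WT-ND LI and is described with the ASVs.

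Unnamed Lachnospiraceae, the largest of these genera, held 2.94%, 5.82% and 16.4% in WT-WD LI and 3.01%, 4.95% and 8.69% in WT-ND LI (log2 fold change 0.56, SE 0.48, adjusted p = 0.491, and -0.28 with TMM factors). WT-WD 1 and 2 were the highest of the 12 libraries. Unnamed Clostridiales held 4.32 ± 1.68% in WT-WD LI and 3.65 ± 2.62% in WT-ND LI (log2 fold change 0.24, SE 0.51, adjusted p = 0.795, and -0.43 with TMM factors). Ruminococcaceae, a further family of fibre fermenters, held 5.18%, 8.78% and 13.2% in WT-WD LI and 1.98%, 3.48% and 7.50% in WT-ND LI (log2 fold change 1.09, SE 0.42, adjusted p = 0.124; exact rank-sum p = 0.0152 unadjusted). Of its 4 genera tested, 3 were fitted higher and 1 lower, none passed, and the median was 1.16. Within it, *Oscillospira* held 4.51 ± 2.93% in WT-WD LI and 1.94 ± 1.02% in WT-ND LI (adjusted p = 0.224).

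The Bacteroidales, which degrade polysaccharides, were mostly an unnamed genus of S24-7, the family now called Muribaculaceae. It held 1.26%, 7.63% and 17.9% in WT-WD LI and 8.50%, 14.7% and 23.9% in WT-ND LI. Of the WT-WD libraries, 4 lay below every WT-ND library, and WT-WD 3 and 4 did not (log2 fold change -0.88, SE 0.49, adjusted p = 0.309). Of its 17 ASVs tested, 14 were fitted lower and 3 higher in WT-WD LI, and none passed. Over all 150 ASVs tested, 54 were fitted lower and 96 higher, and TMM factors, DESeq2 and centred log ratios gave 63 to 65 lower over all ASVs and 14 or 15 of the 17 in S24-7. One of them, ASV_025, was at 0% to 0.795% in every WT-WD library and at 0.820% to 5.60% in every WT-ND library, without overlap (log2 fold change -2.998, SE 1.25, adjusted p = 0.356). The 2 most abundant S24-7 ASVs, ASV_019 and ASV_021, had log2 fold changes of opposite sign, -0.32 and 0.27.

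The other Bacteroidales genera were fitted higher, 3 of the 4 genera tested in the order. *Parabacteroides* had no counts in WT-WD 1, held 0.534% to 5.42% in the other WT-WD libraries and 0.0347% to 0.494% in WT-ND LI (log2 fold change 2.61, SE 1.26, adjusted p = 0.224). Those 5 WT-WD libraries lay above every WT-ND library. *Bacteroides* held 0.470 ± 0.510% in WT-WD LI and 0.230 ± 0.205% in WT-ND LI (adjusted p = 0.551). WT-WD 1, which had no counts of either genus, also had the lowest share of S24-7, 1.26%.

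None of the 3 genera of lactic acid bacteria tested passed. *Lactococcus*, a genus of dairy, held 4.50%, 8.86% and 21.1% in WT-WD LI and 1.32%, 6.26% and 12.8% in WT-ND LI (log2 fold change 0.62, SE 0.54, adjusted p = 0.491, and -0.055 with TMM factors). WT-WD 1 was the highest, and without it the WT-WD mean was 7.96 ± 2.23%, against 6.63 ± 4.29% in WT-ND LI. *Lactobacillus* held 0.562%, 1.71% and 8.60% in WT-WD LI and 0.240%, 0.636% and 12.9% in WT-ND LI (log2 fold change -0.22, SE 1.12, adjusted p = 0.926). Its spread within each diet was wide: 79.8% of it was 1 ASV, ASV_002, which held 5.94% and 7.79% in WT-WD 4 and 5 and 11.4% and 7.66% in WT-ND 2 and 4, and at most 0.534% in the other 8 libraries. Of these 3 genera, 2 were fitted higher and 1 lower, with a median log2 fold change of 0.62.

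Spore-forming Clostridiaceae varied by library within WT-ND LI. *Clostridium* of this family, of which 87.4% was 1 ASV assigned to *C. celatum*, held 0.469%, 3.19% and 9.66% in WT-WD LI. It had no counts in WT-ND 2, 3 and 4 and held 2.27% to 8.50% in the other WT-ND libraries (log2 fold change 1.03, SE 1.73, adjusted p = 0.719). Unnamed Clostridiaceae and *Turicibacter* had no counts in the same 3 WT-ND libraries. SMB53, a lineage known from 16S sequences, held 0.705% to 6.38% in WT-WD LI, had no counts in WT-ND 2 and 4, and held 2.02% to 11.8% in the other WT-ND libraries (log2 fold change -0.36, SE 1.47, adjusted p = 0.912). Proteobacteria were rare on both diets, at most 0.145% of a library. *Escherichia*, a facultative anaerobe represented by 1 ASV assigned to *E. coli*, had 97 counts over 4 of 6 WT-WD libraries and 4 counts in 1 of 6 WT-ND libraries, a log2 fold change of 4.28 ± 1.67 (SE) that did not pass (adjusted p = 0.166).

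The remaining families tested did not pass either with edgeR. Bifidobacteriaceae and Verrucomicrobiaceae had an adjusted p of 0.124 each, Porphyromonadaceae and Enterobacteriaceae 0.170 each, and S24-7 and Lachnospiraceae 0.207 each. It was 0.329 for Rikenellaceae, 0.426 for Streptococcaceae and for unnamed Firmicutes, 0.431 for Deferribacteraceae, 0.497 for Bacteroidaceae and for Dehalobacteriaceae, and 0.759 for unnamed Clostridiales. Clostridiaceae, Lactobacillaceae and Christensenellaceae had 0.890 each and Turicibacteraceae 0.951. The phyla that did not pass besides Firmicutes and Bacteroidetes were Proteobacteria (adjusted p = 0.196) and Deferribacteres (0.411), and Tenericutes, with counts in 2 WT-ND libraries and none in WT-WD LI (52 counts in all), was below the filter. Tested without a filter, Tenericutes had an adjusted p of 0.0357 and was lower in WT-WD LI. Of the 22 families, 16 were fitted higher in WT-WD LI and 6 lower, with a median log2 fold change of 0.78.

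Many ASVs were found on 1 diet only, but they held a small share of the counts. WT-WD LI had counts of 336 ASVs and WT-ND LI of 338, of which 206 were found on both diets, 130 in WT-WD LI only and 132 in WT-ND LI only. The ASVs found on 1 diet only held 4.43 ± 2.06% of the counts of WT-WD LI and 2.74 ± 0.894% of those of WT-ND LI. Only 11 ASVs had counts in all 12 libraries.

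Of 150 ASVs tested, 2 passed (1.33%) and 3 did not overlap between the diets (2.00%): the 2 that passed and ASV_025 of S24-7. ASV_102, assigned to *Roseburia*, had 12 to 369 counts in every WT-WD library (0.0369% to 1.15%, median 0.101%) and none in WT-ND LI, so that its mean share was at least 194-fold higher in WT-WD LI (adjusted p = 0.0402). WT-WD 2 held 369 of its 608 counts, and without it the bound was 94.8-fold. ASV_152, an unnamed member of Clostridiales, had none in WT-WD LI and 19 to 96 counts in every WT-ND library (0.0606% to 0.352%, median 0.151%), at least 112-fold lower in WT-WD LI (adjusted p = 0.0274). These folds are set against 3 counts over the 6 libraries of the group at 0. ASV_102 lost its call when any one of 8 of the 12 libraries was left out (WT-WD 1, 5 and 6 and WT-ND 1, 2, 3, 5 and 6, adjusted p = 0.0597 to 0.0807) and ASV_152 without WT-WD 5 or 6 or WT-ND 1 or 5 (0.0521 to 0.0648). Neither passed without a filter (0.0606 for ASV_102 and 0.0958 for ASV_152) or with adjusted rank-sum tests (0.108 each).

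The diet change in WT LI was set beside that in the LI of MC4R KO mice, 8 on each diet, which lack a receptor that curbs food intake. No genus passed the test of a difference in diet change between the genotypes (0 of 44, 0.00%; 2 at an unadjusted p under 0.05, lowest adjusted p = 0.720). *Akkermansia* averaged 1.79 ± 3.00% in KO-WD LI and 1.71 ± 3.21% in KO-ND LI (n = 8 each), beside 10.3 ± 8.85% in WT-WD LI and 0.543 ± 0.883% in WT-ND LI, and the difference between its log2 changes, WT minus KO, was 4.18 (SE 2.89, adjusted p = 0.787). *Bifidobacterium* averaged 2.31 ± 1.20% in KO-WD LI and 7.66 ± 6.58% in KO-ND LI, with a difference of -2.03 (SE 1.55, adjusted p = 0.787). *Allobaculum* averaged 23.8 ± 6.81% in KO-WD LI and 21.9 ± 12.9% in KO-ND LI, with a difference of -0.80 (SE 0.71, adjusted p = 0.927). Unnamed [Mogibacteriaceae] averaged 0.0726 ± 0.0664% in KO-WD LI and 0.0525 ± 0.0488% in KO-ND LI, with a difference of 2.17 (SE 1.55, adjusted p = 0.787). rc4-4 and *Escherichia* had no counts in the 16 KO LI libraries, so their diet change has no KO value to be set against. Others of the 44, such as [Prevotella] and unnamed Desulfovibrionaceae, had no counts in WT LI. Genera without counts in 1 genotype could not pass, so 0 of 44 does not show that the diet changes of all 44 were alike.

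The comparison with the SI of wild-type mice took SI and LI libraries of 1 number as 1 mouse, an assumption that the labels do not state. No genus passed the test of a difference in diet change between the sites (0 of 40, 0.00%; 2 at an unadjusted p under 0.05, lowest adjusted p = 0.125), nor did any without that assumption (lowest adjusted p = 0.204). The lowest p belonged to unnamed S24-7, which averaged 0.434 ± 0.462% in WT-WD SI and 4.38 ± 4.74% in WT-ND SI, and its change in the LI minus that in the SI was 2.39 on the log2 scale (SE 0.80). *Akkermansia* averaged 4.13 ± 5.26% in WT-WD SI and 0.158 ± 0.205% in WT-ND SI, and *Bifidobacterium* 2.96 ± 3.06% in WT-WD SI and 12.7 ± 8.97% in WT-ND SI. rc4-4 had counts in 1 of 6 WT-WD SI and 0 of 6 WT-ND SI libraries. For *Anaerotruncus* and *Dehalobacterium*, also among the 40, no SI change could be fitted, so they could not pass. The SEs of the differences given for the genotypes and sites were 0.71 to 2.89 on the log2 scale, and the size of a difference that could be detected varied with them.

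**Figure D5:**
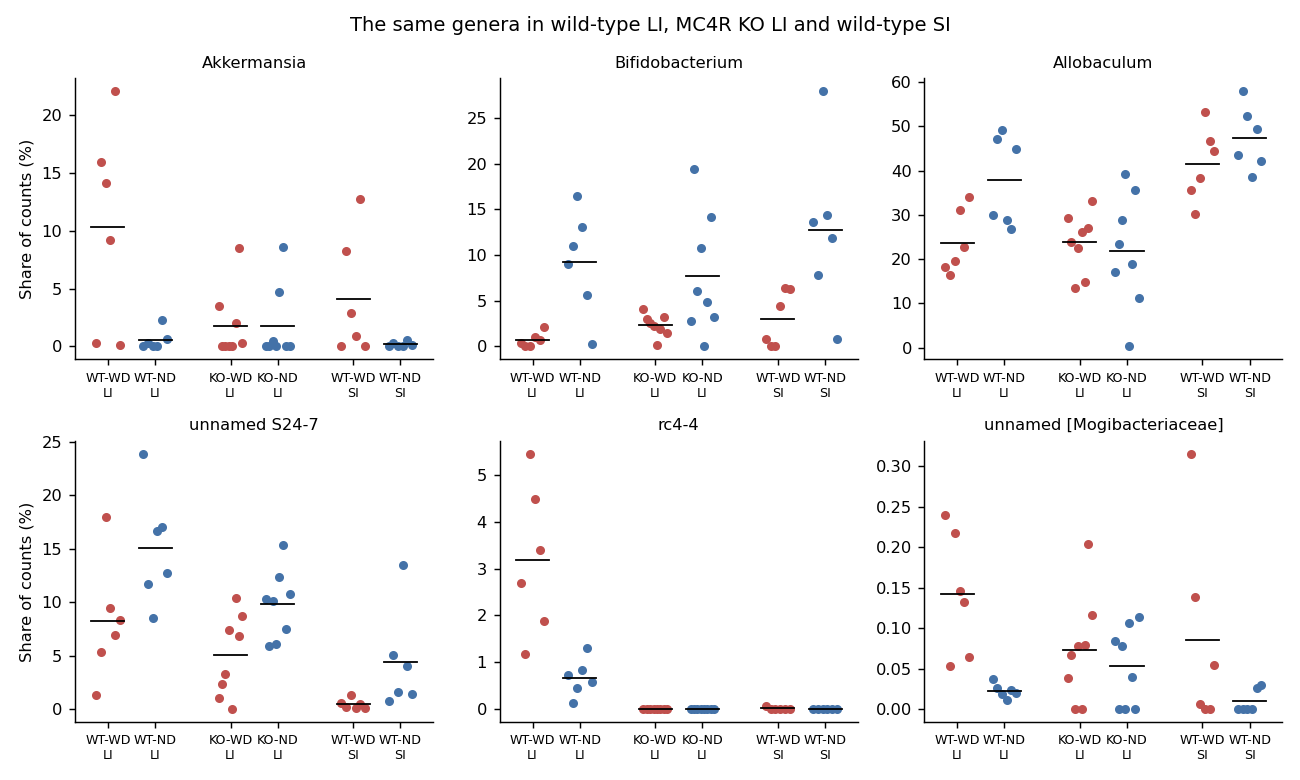
Shares (%) of 6 genera in WT-WD and WT-ND LI, KO-WD and KO-ND LI and WT-WD and WT-ND SI; each point is a library and each line the mean of a group, with linear axes that differ between panels. rc4-4 stands above 0.1% in the wild-type LI libraries only, and *Akkermansia* has its highest shares in WT-WD LI.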

How the data were processed

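The authors amplified the V3–V4 region of the 16S rRNA gene and sequenced it, and per the labels used FASTX-Toolkit 0.0.14, Sickle 1.33, FLASH 1.2.11, DADA2 in QIIME 2 2021.4 and Greengenes 13_8. They deposited raw counts of 938 ASVs in 56 libraries, without normalization. Here, counts were summed by lineage, and an ASV without a genus name was kept under its family or order. A taxon was tested where its mean share reached 0.01% and it had counts in at least 4 of the 12 libraries. The test was edgeR 4.0.16's quasi-likelihood test (R 4.3.3), scaled by library totals. P-values were adjusted by Benjamini-Hochberg over all taxa of a rank, and the threshold was 0.05. The SE is the log2 fold change over the square root of F. Diversity used 100 seeded draws of 27237 counts, exact rank-sum tests and exact permutational analysis of variance. The phylum ratio had 0.5 added to each count. Alternatives were TMM factors, DESeq2 1.42.0, limma 3.58.1 on centred log ratios, no filter, a 0.1% filter, rank-sum tests, 4 groups in 1 fit, a replicate block and each library left out. Other steps ran in Python 3.11.15 with scipy 1.17.1, pandas 2.3.3, numpy 2.4.6 and, for plots, matplotlib 3.10.9. The edgeR fit was run on simulated counts with known changes and the same dispersion for every taxon, which need not match the spread of these data.

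The members and lists were chosen with earlier results of these data known. The rule named every phylum and family tested, genera past the threshold, the 10 most abundant genera, the main ASVs of these genera and ASVs past the threshold, and the list members by count and direction only. List members given with full values, such as rc4-4, *Escherichia*, [Ruminococcus], *Coprococcus* and *Roseburia*, were chosen for it after their values were seen. No label gave a sequencing run or batch, so none could be tested. The p-values set a difference between groups against the spread between these libraries, or against other divisions of them.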

Additional observations from a re-analysis of the deposited data

Results flagged for a closer look

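In 16 of 78 groups of 6 values, 1 library lay far from the other 5 of its group by Dixon's test. Chance flags about 1 in 20 groups of independent, normal values, but these shares are skewed, nested taxa share counts, and a group with counts in 1 library is always flagged, so the number of flags is not a measure of excess. Among the WT-WD libraries, WT-WD 1 stood highest in Streptococcaceae (21.4%, next 10.1%), *Lactococcus* (21.1%, next 10.1%), Christensenellaceae (0.145%, next 0.0341%) and the Firmicutes to Bacteroidetes ratio (45.8, next 8.17). WT-WD 2 stood highest in Deferribacteres (4.30%, next 0.0648%), which was all *Mucispirillum*. WT-WD 3 stood highest in Bacteroidetes (25.4%, next 10.6%) and Porphyromonadaceae (5.42%, next 1.66%). WT-WD 4 stood highest in Coriobacteriaceae (3.41%, next 0.387%) and WT-WD 6 in Turicibacteraceae (2.82%, next 0.575%).

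Among the WT-ND libraries, WT-ND 4 stood highest in Bacteroidaceae (0.628%, next 0.230%), unnamed Clostridiales (8.73%, next 4.25%) and unnamed Firmicutes (0.0294%, the only WT-ND library with counts). WT-ND 1 stood highest in Deferribacteres (0.517%, next 0.147%) and in *Clostridium* of the Clostridiaceae (8.50%, next 2.35%), WT-ND 5 in Verrucomicrobia (2.27%, next 0.668%), and WT-ND 6 in *Escherichia* (0.0130%, the only WT-ND library with counts). These libraries were kept in every test.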

How the results depend on the processing

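Against 2 phyla, 2 families, 1 genus and 2 ASVs passed, TMM factors gave 1, 0, 0 and 2, DESeq2 2, 7, 6 and 9, centred log ratios 2, 4, 2 and 4, no filter 3, 0, 0 and 0, a 0.1% filter 1, 0, 0 and 1, adjusted exact rank-sum tests 1, 2, 0 and 0 (7 genera unadjusted) and 4 groups in 1 fit 1, 0, 0 and 3. With 1 library left out the counts were 0 to 2 phyla, 0 to 3 families, 0 to 2 genera and 0 to 3 ASVs. The genera DESeq2 passed were *Akkermansia*, *Allobaculum*, *Bifidobacterium*, rc4-4, unnamed Peptococcaceae and unnamed [Mogibacteriaceae], and those of the centred log ratios were unnamed Coriobacteriaceae and unnamed Peptococcaceae. Besides the 2 families, DESeq2 passed Bifidobacteriaceae, Coriobacteriaceae, Erysipelotrichaceae, S24-7 and Verrucomicrobiaceae, and centred log ratios Bifidobacteriaceae and Coriobacteriaceae. The phylum added without a filter was Tenericutes. The genus interactions had 0 calls under every alternative. The causes of these differences were not tested.

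The numbers were not taken to pair mice across diets, since the diet groups were made up of different mice. Same-numbered libraries had correlations of deviations of -0.132 to 0.285, and 1 of 6 WT-WD libraries was most alike its own number. These values are too few to decide whether numbers pair. With the replicate block, 0 phyla, 0 families, 0 genera and 2 ASVs passed, and neither ASV was one of the 2 without the block. The site comparison took libraries of 1 number as 1 mouse, which the labels do not state, and its fit with no replicate block also had 0 calls.

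Of 762 values of 38 taxa under alternatives, 34 changed direction, none of a taxon that passed. The log2 fold changes were, with centred log ratios, -0.40 for Deferribacteres (-0.11 with the block), -0.078 for Firmicutes, -0.71 for Bacteroidaceae, 0.73 for Turicibacteraceae (1.80 with the block), 2.36 for SMB53 (1.24 with the block), 0.027 for *Lactobacillus* (0.64 with the block), -0.14 for unnamed Lachnospiraceae and -0.15 for unnamed Clostridiales. With TMM factors and DESeq2 they were -0.055 and -0.013 for *Lactococcus*, -0.28 and -0.21 for unnamed Lachnospiraceae, -0.43 and -0.38 for unnamed Clostridiales, and -0.017 and -0.12 for Christensenellaceae, and -0.095 for Clostridiaceae with DESeq2. With 1 library left out, the ranges were -3.08 to 4.50 for Deferribacteres, -0.57 to 0.90 for Christensenellaceae, -2.06 to 0.77 for Turicibacteraceae, -0.68 to 0.33 for SMB53, -0.80 to 0.74 for *Lactobacillus*, -7.33 to 6.07 ASVs for richness and 0.39 to 1.25 for the phylum log2 ratio. On genera, the Shannon index differed by 0.57 and evenness by 0.108. Separation by Bray–Curtis distances explained 24.4% to 30.9% with 1 library left out. Scaling moved the median of all genera by -0.64 (TMM), -0.63 (DESeq2) and -0.54 (centred log ratios), of all families by -0.33, -0.58 and -0.51, of ASVs by -0.13 and -0.20 (TMM and DESeq2), and of phyla by 0.55 with DESeq2 and -1.63 with centred log ratios, where 2 of 6 phyla were higher in WT-WD LI.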
